A study of Homo sapiens with 9 samples.

Results

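Notch signalling genes were followed through RNA-seq of OVCAR3 cells, an ovarian cancer cell line of high-grade serous origin, in which *CTCFL* had been raised or lowered. The 10 genes were chosen by name, though with earlier results of these data known, from the 60660 genes counted. They comprise 4 receptors (*NOTCH1*, *NOTCH2*, *NOTCH3* and *NOTCH4*), 3 ligands (*JAG1*, *JAG2* and *DLL1*) and 3 target genes (*HES1*, *HEY1* and *HEYL*). All 10 were found by symbol, and 9 of them were tested, since *NOTCH4* had too few counts. *CTCFL*, also called BORIS, encodes a DNA-binding protein that is a paralog of CTCF and is normally made in germ cells. The question was how the transcripts of this pathway differed between the groups.

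There were 3 libraries in each of 3 groups. Control cells carried no change of *CTCFL* per the labels and received a LacZ plasmid per the study's methods. CTCFL-OE cells were transiently transfected with 2 µg of the plasmid pCpGfree-vitroHBORIS, which holds the *CTCFL* reading frame, and were harvested 48 h later. CTCFL-KD cells had *CTCFL* lowered with siRNA per the series' design text, in an experiment published earlier, and no control of that experiment is among the libraries used here. CTCFL-KD was therefore compared with the same Control libraries as CTCFL-OE, and the knockdown and the separate experiment cannot be told apart. Each biological replicate pooled 3 technical replicates of 1 cell line, so the spread between libraries is that between cultures of OVCAR3 and not between tumors.

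The libraries held between 14332622 and 24490080 counts, and a gene with 0 counts could still have been present at up to 3 counts per library, which is between 0.117 and 0.271 CPM (counts scaled to a common library size, here with the TMM factor explained further on). *CTCFL* had 6, 9 and 10 counts in the Control libraries, 36, 34 and 72 in those of CTCFL-OE and 0, 1 and 0 in those of CTCFL-KD, so the libraries followed their labels. Its log2 fold change was 2.73 (SE 0.48, adjusted p = 0.0287) in CTCFL-OE. *CTCFL* was at least 1.89-fold lower in CTCFL-KD (adjusted p = 0.0162), with 3 counts put in for each CTCFL-KD library in place of the 0 or 1 observed. When 1 Control library was left out the adjusted p in CTCFL-OE lay between 0.125 and 0.176, and without CTCFL-KD replicate 3 that in CTCFL-KD was 0.0551. The 10 markers of ovarian epithelial cells were at 1 CPM or more in every group, with a summed level of 5370 to 5480 CPM in Control, 4670 to 5070 in CTCFL-OE and 9160 to 15000 in CTCFL-KD. Of these, *KRT7* and *WT1* had lower means in CTCFL-KD than in Control (670 against 1450 CPM and 47.0 against 72.8 CPM), and the others had higher ones. Fibroblast markers at 1 CPM or more were 1, 1 and 2 of 9 in Control, CTCFL-OE and CTCFL-KD, endothelial markers 3, 2 and 3 of 7 and leukocyte markers 0, 0 and 1 of 7. The additional fibroblast marker in CTCFL-KD was *COL1A2*, with 0 counts in each Control library, at most 2 counts in a CTCFL-OE library and a mean of 13.9 ± 0.36 CPM (SD, n = 3) under CTCFL-KD. *COL1A1*, the marker at 1 CPM or more in every group, had means of 29.8, 33.5 and 23.3 CPM in Control, CTCFL-OE and CTCFL-KD. Mitochondrial genes took 6.16% to 6.52% of the counts in Control, 7.80% to 11.76% in CTCFL-KD and 7.40% to 14.9% in CTCFL-OE, where replicate 1 had the lowest share. That library was the nearest of its group to the Control mean in *NOTCH1*, *NOTCH2*, *NOTCH3*, *JAG1* and *JAG2*. It was not the nearest in *NOTCH4*, *DLL1*, *HEY1* or *HEYL*, and in *HES1* replicates 1 and 2 were about equally far. Whether these marker levels and shares have a part in the Notch values was not tested. CTCFL-KD replicate 1 stood apart from the other CTCFL-KD libraries, with a scaling factor of 0.775 against 0.945 to 1.09 in the other 8 libraries and lower values of long transcripts, and where leaving it out ended a call or took a log2 fold change across 1 or -1 both values are given.

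Notch receptors are membrane proteins that are cut in successive steps after they bind a ligand on a neighbouring cell. The part that is set free, the intracellular domain, enters the nucleus, joins the DNA-binding protein RBPJ and its coactivator MAML, and switches on target genes such as those of the HES and HEY families, which encode transcriptional repressors. In ovarian carcinoma the pathway is known for *NOTCH3*, which lies in a region of chromosome 19 that is gained in part of the tumors, and for Jagged ligands.

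Differences were tested with edgeR's quasi-likelihood test on the counts of all 9 libraries, and every adjusted p given for them is the Benjamini-Hochberg value over the 17794 genes tested. The threshold was an adjusted p of 0.1 for CTCFL-OE against Control and of 0.05 for CTCFL-KD against Control or CTCFL-OE, and a gene whose log2 fold change was also above 1 or below -1 is called a DEG. Levels of 1 gene across libraries are given in CPM scaled by TMM, a factor per library that corrects for a few genes taking many counts. Levels of different genes are compared only in TPM, which also divides by the length of the exons.

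In Control cells *JAG1*, *NOTCH2* and *NOTCH3* were the most abundant of the 10 transcripts per length and *NOTCH4* and *DLL1* the least. *JAG1* was at 94.0 ± 6.19 TPM (SD, n = 3) and *NOTCH2* at 83.7 ± 8.66 TPM. Their ranges overlapped, though *JAG1* was the higher of them within each Control library. *NOTCH3* at 68.7 ± 2.26 TPM, *HES1* at 54.3 ± 1.47 TPM and *NOTCH1* at 14.1 ± 0.641 TPM followed without overlap. Next came *JAG2* at 7.02 ± 0.625 TPM, *HEY1* at 5.64 ± 0.351 TPM and *HEYL* at 4.66 ± 0.274 TPM, again without overlap between neighbours. *DLL1* and *NOTCH4* overlapped at 0.182 ± 0.195 and 0.0966 ± 0.0365 TPM. The order in CTCFL-OE was the same except that *NOTCH3* stood before *NOTCH2*, and there *JAG1* overlapped with *NOTCH3*, *NOTCH3* with *NOTCH2* and *JAG2* with *HEY1*. In CTCFL-KD the first 3 genes, *JAG1*, *NOTCH3* and *NOTCH2*, each overlapped with the next, *HES1* followed *NOTCH2* and did not overlap with *NOTCH1*, and *NOTCH1* overlapped with *HEY1*. There *DLL1*, at 3.64 ± 1.75 TPM, stood beside *HEYL* at 3.49 ± 0.568 TPM with overlap, and *HEY1* at 11.9 ± 2.68 TPM stood above *JAG2* at 7.32 ± 1.43 TPM without overlap.

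**Figure D1:**
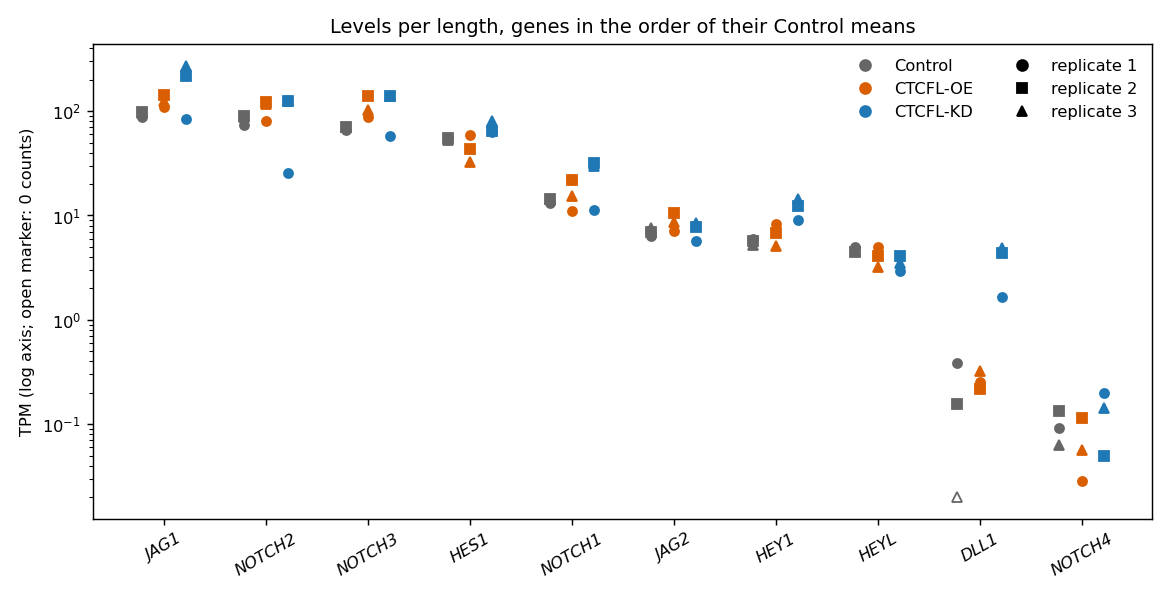
Levels in TPM on a log axis of the 10 Notch genes in each of the 9 libraries, with color for the group and marker shape for the replicate, and with an open marker at the bottom for the 0 counts of *DLL1* in Control replicate 3. *JAG1*, *NOTCH2* and *NOTCH3* have the highest mean levels in each group and *NOTCH4* the lowest, CTCFL-KD replicate 1 has *HES1* above *NOTCH2* and *NOTCH3*, and the *DLL1* values of CTCFL-KD lie apart above those of the other groups.

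Of the receptors, *NOTCH3* was higher in both CTCFL-OE and CTCFL-KD than in Control, *NOTCH1* was higher in CTCFL-KD, and *NOTCH2* passed the test in neither. In CTCFL-KD *NOTCH1* rose 2.12-fold and *NOTCH3* 2.03-fold, and *NOTCH3* rose 1.88-fold in CTCFL-OE.

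*NOTCH3* (ENSG00000074181) lies at chr19:15159038-15200995 on the minus strand of GRCh38. Its level was 210, 213 and 217 CPM in Control, 276, 492 and 433 CPM in CTCFL-OE and 353, 478 and 467 CPM in CTCFL-KD. Every treated library lay above every Control library, and replicate 1 was the lowest of each treated group. The log2 fold change was 0.91 (SE 0.24, 95% interval 0.39 to 1.43, adjusted p = 0.0927) in CTCFL-OE, just inside the threshold, and 1.02 (SE 0.24, interval 0.50 to 1.54, adjusted p = 0.00646) in CTCFL-KD. The call in CTCFL-OE was lost without any 1 Control library (adjusted p between 0.317 and 0.362), without CTCFL-OE replicate 2 or 3 (0.379 and 0.271), without CTCFL-KD replicate 2 or 3 (0.109 and 0.116) and with library totals in place of TMM (0.15).

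*NOTCH1* (ENSG00000148400) lies at chr9:136494433-136546048 on the minus strand. It was at 56.5, 58.5 and 59.5 CPM in Control, 45.9, 104 and 87.1 CPM in CTCFL-OE and 91.3, 147 and 130 CPM in CTCFL-KD. The CTCFL-KD libraries all lay above Control, whereas the CTCFL-OE libraries lay on both sides of it. On the log2 scale *NOTCH1* differed from Control by 1.08 (SE 0.28, interval 0.46 to 1.71, adjusted p = 0.0122) in CTCFL-KD and 0.44 (SE 0.28, interval -0.18 to 1.06, adjusted p = 0.436) in CTCFL-OE.

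*NOTCH2* (ENSG00000134250) lies at chr1:119911553-120100779 on the minus strand. It was at 418, 483 and 486 CPM in Control, 447, 758 and 883 CPM in CTCFL-OE and 278, 772 and 740 CPM in CTCFL-KD. In both treated groups replicates 2 and 3 lay above Control and replicate 1 did not, and CTCFL-KD replicate 1 was the lowest of all 9 libraries. The fitted log2 fold change was 0.59 (SE 0.37, interval -0.22 to 1.40, adjusted p = 0.425) in CTCFL-OE and 0.37 (SE 0.37, interval -0.44 to 1.18, adjusted p = 0.45) in CTCFL-KD. Without CTCFL-KD replicate 1 the latter was 0.71 with an adjusted p of 0.0298. *NOTCH2* shares near-identical sequence with *NOTCH2NLA*, *NOTCH2NLB*, *NOTCH2NLC* and *NOTCH2NLR*, partial copies of its first exons in the human genome, so reads of these genes may have been split or dropped and all of these values are uncertain. Of the copies, *NOTCH2NLA*, *NOTCH2NLB* and *NOTCH2NLC* were higher in CTCFL-KD, by log2 fold changes of 1.14, 1.88 and 0.94 (adjusted p = 0.00609, 0.0233 and 0.00541), none passed the test in CTCFL-OE, and *NOTCH2NLR* had too few counts to test. *NOTCH2NLB* was at 0.301, 1.3 and 0.861 CPM in Control and 6.13, 1.72 and 1.86 CPM in CTCFL-KD, highest in replicate 1. Its call was lost without CTCFL-KD replicate 1 (1.07, adjusted p = 0.0649), without Control replicate 1 or 3 (adjusted p = 0.0749 and 0.0645) and with edgeR on the 2 groups alone (0.0679), whereas *NOTCH2NLA* and *NOTCH2NLC* were at 1.0 and 0.97 without CTCFL-KD replicate 1 (adjusted p = 0.00718 and 0.00252). Exons of *NOTCH2NLA*, *NOTCH2NLB* and *NOTCH2NLR* also overlap those of NBPF genes on the same strand.

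*NOTCH4* (ENSG00000204301), at chr6:32194843-32224067 on the minus strand, a receptor best known from endothelial cells, had 6, 11 and 4 counts in the Control libraries, 2, 8 and 4 counts in those of CTCFL-OE and 14, 3 and 9 counts in those of CTCFL-KD. The groups overlapped and no difference was detectable at this depth.

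Per length, *NOTCH2* took 48.1% to 51.3% of the summed receptor TPM in Control, 42.7% to 49.9% in CTCFL-OE and 27.0% to 42.4% in CTCFL-KD. *NOTCH3* took 40.3% to 43.1%, 43.5% to 49.4% and 46.7% to 61.0% in the same order, and *NOTCH1* 8.32% to 8.69%, 6.14% to 7.83% and 9.98% to 11.8%. The share of *NOTCH3* thus lay above Control in all 6 treated libraries, that of *NOTCH2* lay below Control in all 3 CTCFL-KD libraries and that of *NOTCH1* above it. These shares are descriptions with no test, and since the receptor transcripts differ in length they also move with the length trend described further on.

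Of the ligands, *JAG1* and *DLL1* were higher in CTCFL-KD, *JAG2* was not past the threshold in either group, and no ligand passed it in CTCFL-OE. *JAG1* rose 2.48-fold in CTCFL-KD. The difference of *DLL1* was the largest among the 9 genes tested, though from a very low Control level.

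*JAG1* (ENSG00000101384) encodes the Jagged ligand that OVCAR3 cells hold most of and lies at chr20:10637684-10673999 on the minus strand. It was at 273, 296 and 296 CPM in Control, 337, 501 and 528 CPM in CTCFL-OE and 501, 751 and 894 CPM in CTCFL-KD. All 6 treated libraries lay above Control, with overlap between CTCFL-OE and CTCFL-KD. *JAG1* had a log2 fold change of 1.31 (SE 0.26, interval 0.75 to 1.88, adjusted p = 0.00262) in CTCFL-KD. In CTCFL-OE it was 0.66 (SE 0.25, interval 0.10 to 1.21) with an adjusted p of 0.211, which passed the threshold in 6 of 21 alternatives. The TPM of *JAG1* was 92.7% to 93.2% of that of the 3 ligands in Control, 93.0% to 93.8% in CTCFL-OE and 91.8% to 95.3% in CTCFL-KD.

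*JAG2* (ENSG00000184916), the second Jagged ligand, lies at chr14:105140982-105168824 on the minus strand. It was at 13.9, 14.5 and 16.1 CPM in Control, 14.9, 25.2 and 25 CPM in CTCFL-OE and 23.8, 18.1 and 19.3 CPM in CTCFL-KD. The CTCFL-KD libraries lay above Control and CTCFL-OE replicate 1 lay within it. The log2 fold change was 0.55 (SE 0.22, interval 0.06 to 1.03, adjusted p = 0.233) in CTCFL-OE and 0.46 (SE 0.22, interval -0.03 to 0.95, adjusted p = 0.125) in CTCFL-KD, and the latter had an adjusted p of 0.048 without CTCFL-OE replicate 1, which enters the estimate of the spread.

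*DLL1* (ENSG00000198719), a Delta-like ligand, lies at chr6:170282206-170306565 on the minus strand. It had 10, 5 and 0 counts in the Control libraries, 7, 6 and 9 counts in those of CTCFL-OE and 45, 104 and 120 counts in those of CTCFL-KD, which is 0.501, 0.194 and 0 CPM, 0.319, 0.314 and 0.553 CPM and 4.06, 6.18 and 6.57 CPM. It thus had 10 counts or fewer per library in Control and CTCFL-OE, near the limit of 3, and was well above this limit in every CTCFL-KD library. *DLL1* had a log2 fold change of 4.58 (SE 0.56, interval 3.35 to 5.81, adjusted p = 0.000158) in CTCFL-KD and 0.74 (SE 0.71, interval -0.83 to 2.30, adjusted p = 0.614) in CTCFL-OE. The size in CTCFL-KD depends on a few counts in Control and ran from 4.04 to 5.61 when each library was left out in turn, and that in CTCFL-OE ran from 0.20 without Control replicate 3 to 1.78 without Control replicate 1. Exons of *DLL1* share 370 bases with *FAM120B* on the opposite strand, whose counts were 599, 811 and 554 in Control and 200, 580 and 560 in CTCFL-KD (log2 fold change -0.10, SE 0.22, adjusted p = 0.74). *DLL1* made up at most 0.414% of the TPM of the 3 ligands in Control and 1.71% to 1.90% in CTCFL-KD.

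**Figure D2:**
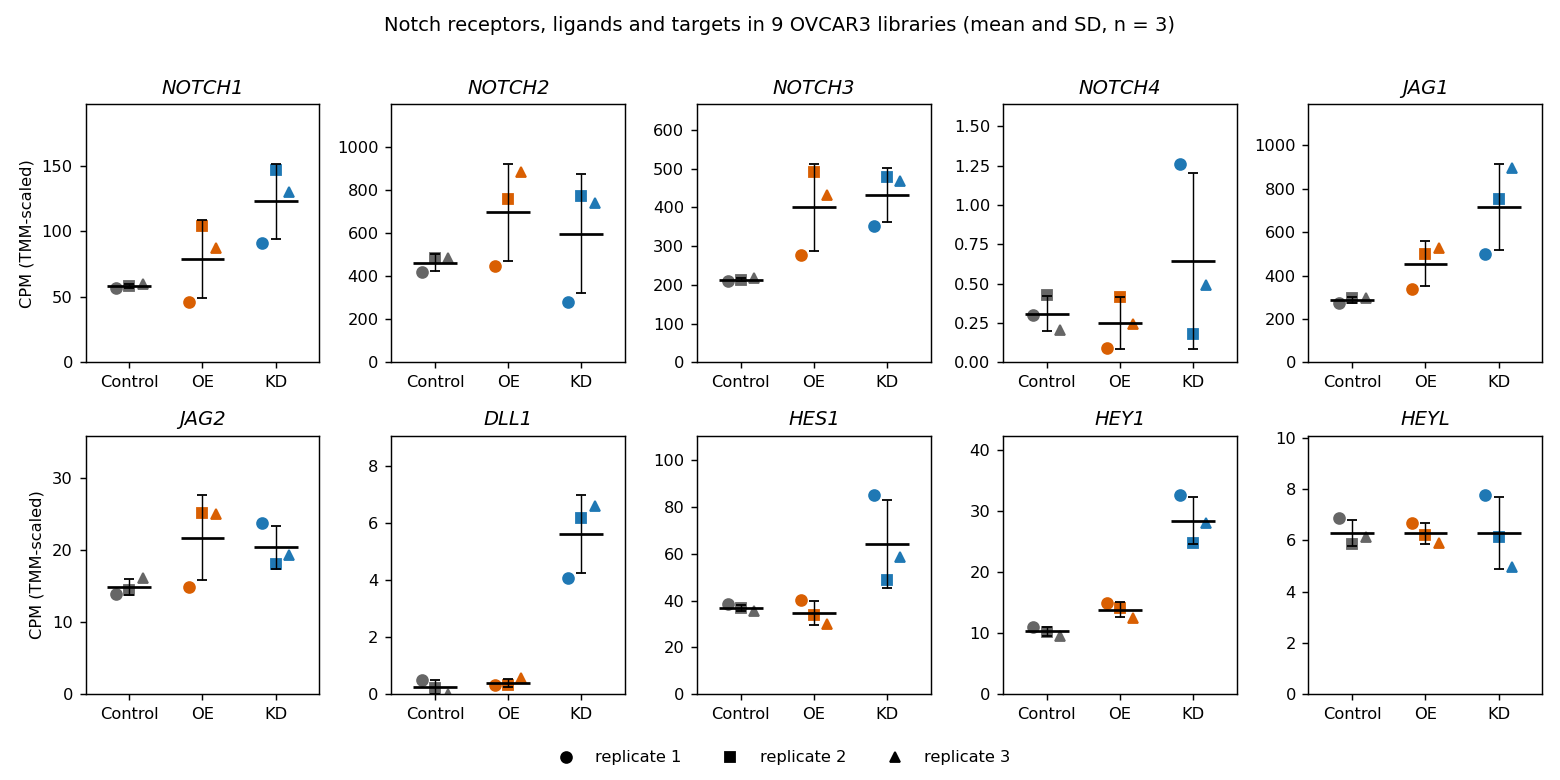
TMM-scaled CPM of the 10 Notch genes in each library, 1 panel per gene with its own scale from 0, with marker shape for the replicate and lines for the group mean and SD (n = 3; the lower SD bar stops at 0). *NOTCH3*, *JAG1* and *HEY1* lie above Control in all 6 treated libraries, *DLL1* lies between 4.06 and 6.57 CPM in CTCFL-KD against 0.553 CPM at most elsewhere, and *HEYL* overlaps between all groups.

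Of the target genes, *HES1* and *HEY1* were higher in CTCFL-KD, none passed the test in CTCFL-OE, and *HEYL* was at mean levels of 6.29, 6.27 and 6.29 CPM in Control, CTCFL-OE and CTCFL-KD. The difference between target genes was not tested. All encode basic helix-loop-helix repressors that bind DNA at promoters of other genes.

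*HEY1* (ENSG00000164683), on the minus strand of chromosome 8, was at 11.0, 10.2 and 9.47 CPM in Control, 14.9, 14 and 12.5 CPM in CTCFL-OE and 32.5, 24.7 and 28.0 CPM in CTCFL-KD. The 3 groups did not overlap with one another. The log2 fold change was 1.47 (SE 0.17, interval 1.09 to 1.85, adjusted p = 0.000116) in CTCFL-KD and 0.43 (SE 0.17, interval 0.05 to 0.81) in CTCFL-OE, where the adjusted p of 0.225 was not past the threshold.

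*HES1* (ENSG00000114315), at chr3:194136148-194138732 on the plus strand, was at 38.3, 36.9 and 35.7 CPM in Control, 40.2, 33.8 and 29.8 CPM in CTCFL-OE and 85.0, 48.6 and 58.5 CPM in CTCFL-KD. Every CTCFL-KD library lay above the other groups, replicate 1 furthest. The log2 fold change was 0.79 (SE 0.22, interval 0.31 to 1.27, adjusted p = 0.0152) in CTCFL-KD and -0.09 (SE 0.22, interval -0.57 to 0.38, adjusted p = 0.848) in CTCFL-OE. Without any 1 Control library the adjusted p in CTCFL-KD lay between 0.0508 and 0.0644, and without CTCFL-KD replicate 1 the log2 fold change was 0.54 (adjusted p = 0.00794).

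*HEYL* (ENSG00000163909), at chr1:39623435-39639643 on the minus strand, was at 6.86, 5.87 and 6.13 CPM in Control, 6.70, 6.22 and 5.90 CPM in CTCFL-OE and 7.76, 6.12 and 4.98 CPM in CTCFL-KD. The groups overlapped, with log2 fold changes of -0.00 (SE 0.20, interval -0.45 to 0.45, adjusted p = 1.0) in CTCFL-OE and -0.01 (SE 0.20, interval -0.46 to 0.44, adjusted p = 0.979) in CTCFL-KD.

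The promoters of *HES1*, which passed the test in CTCFL-KD, and *HEYL*, which did not, are shown because both hold letters of the RBPJ motif. RefSeq promoters, here 250 bases before and 50 after the start, were found for 8 of the 10 genes. They were searched on both strands for GTGGGAA, letters to which RBPJ is known to bind, and for AGGGGGC, letters of the core that CTCFL shares with CTCF. GTGGGAA occurred in the promoters of *HES1* (first base at -85 from the start) and *HEYL* (-178), that is in 2 of 8, against 6.25% of all 35116 promoters in the table. AGGGGGC occurred in *NOTCH1* (-80), *JAG2* (-53) and *HEYL* (-143), in 3 of 8 against 14.4% of all promoters. The 250 bases before the start follow, 5′ to 3′ on the strand of the gene, from chr3:194135898-194136147 (plus strand) for *HES1* and chr1:39639644-39639893 (minus strand) for *HEYL* of GRCh38.p14, with both motifs in capitals on either strand.
HES1: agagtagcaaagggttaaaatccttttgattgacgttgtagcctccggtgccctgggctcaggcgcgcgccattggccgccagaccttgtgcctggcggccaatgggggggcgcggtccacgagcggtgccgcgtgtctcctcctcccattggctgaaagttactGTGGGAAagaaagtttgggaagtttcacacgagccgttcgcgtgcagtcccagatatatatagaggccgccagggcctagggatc
HEYL: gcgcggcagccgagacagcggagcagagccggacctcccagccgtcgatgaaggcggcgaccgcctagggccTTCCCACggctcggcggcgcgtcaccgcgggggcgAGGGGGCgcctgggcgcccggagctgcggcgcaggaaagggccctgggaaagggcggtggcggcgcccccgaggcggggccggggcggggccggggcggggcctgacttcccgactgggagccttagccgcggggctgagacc
The RBPJ letters stand as GTGGGAA in *HES1* and in the reverse direction, TTCCCAC, in *HEYL*, and a match of letters is no evidence of binding.

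Counted together, 1 of the 9 tested genes (*NOTCH3*) rose in CTCFL-OE, none fell, and none was a DEG, where 3.15% of all genes passed the test (1.99% higher and 1.16% lower) and 1.37% were DEGs with a higher level. The median log2 fold change of the 9 was 0.55, against -0.01 over all genes tested. The 3 CTCFL-OE libraries lay wholly above Control in *NOTCH3*, *JAG1* and *HEY1*, as they did for 16.3% of all genes. The count of 1 was 0 without any 1 Control library and without CTCFL-OE replicate 2 or 3 or CTCFL-KD replicate 2 or 3, and it was 4 without CTCFL-OE replicate 1 and 5 without CTCFL-KD replicate 1, where 15.1% and 27.4% of all genes passed.

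In CTCFL-KD 6 of the 9 (*NOTCH1*, *NOTCH3*, *JAG1*, *DLL1*, *HES1* and *HEY1*) rose, none fell, and 5 of them, all but *HES1*, were DEGs. Over all genes 38.2% passed this test, 21.4% higher and 16.8% lower, and 15.3% were DEGs with a higher level. The median log2 fold change of the 9 was 1.02, against 0.08 over all genes. The CTCFL-KD libraries lay wholly above Control in these 6 and in *JAG2*, as they did for 28.7% of all genes. Scaling to library totals moved the median over all genes by -0.17, and the same 6 genes then passed, with 3 DEGs. The number of DEGs was also 3 without CTCFL-KD replicate 2, since *NOTCH1* and *NOTCH3* lay close to a log2 fold change of 1.

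**Figure D3:**
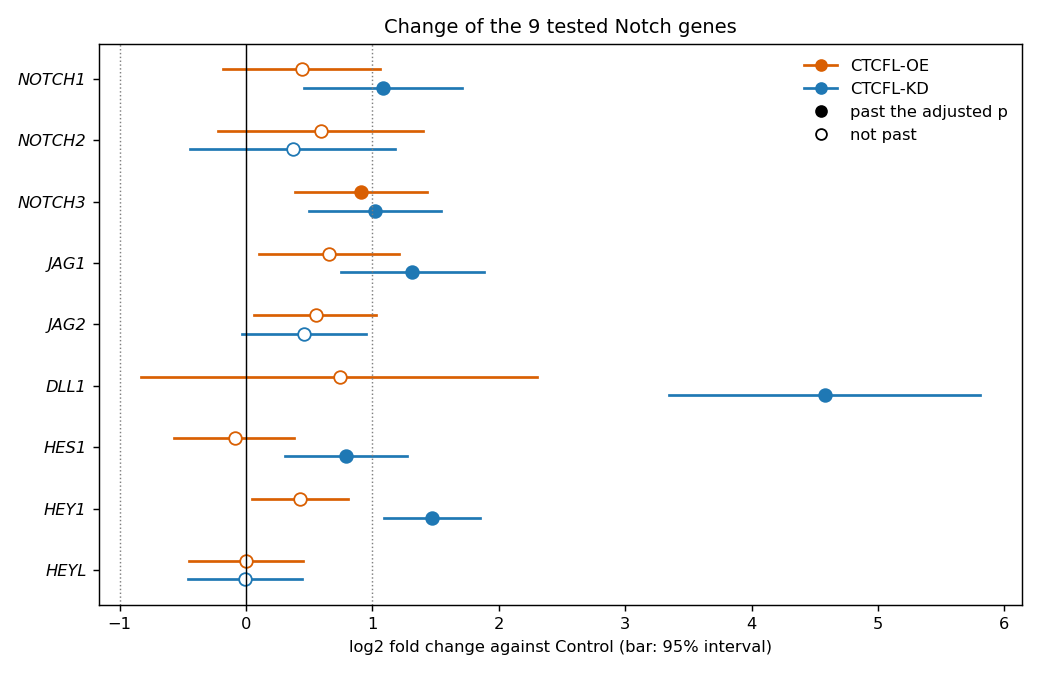
Log2 fold changes against Control of the 9 tested Notch genes, with 95% intervals, in CTCFL-OE (orange) and CTCFL-KD (blue), filled where the adjusted p is past the threshold and with dotted lines at -1 and 1. Only *NOTCH3* is filled in CTCFL-OE and 6 genes are filled in CTCFL-KD, where *DLL1* is at 4.58.

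Since both comparisons share the Control libraries, the treated groups were also compared with each other. Of all genes 26.8% passed this test, 15.3% higher and 11.5% lower in CTCFL-KD, and 10.6% were DEGs with a higher level. Of the 9 Notch genes 3 were higher, 2 of them DEGs, and none was lower. The groups also did not overlap in these 3, as in 20.3% of all genes with CTCFL-KD above. These were *DLL1* (log2 fold change 3.84, SE 0.53, adjusted p = 0.000458), *HEY1* (1.04, SE 0.17, adjusted p = 0.00129) and *HES1* (0.89, SE 0.22, adjusted p = 0.0127). The call of *HES1* was lost with edgeR on the 2 groups alone (0.89, adjusted p = 0.0513) and without CTCFL-OE replicate 2 (0.86, adjusted p = 0.0535). The receptors did not pass this test. *NOTCH3* differed by 0.11 (interval -0.40 to 0.63, adjusted p = 0.748), *NOTCH1* by 0.64 (interval 0.02 to 1.26, adjusted p = 0.114) and *NOTCH2* by -0.22 (interval -1.03 to 0.59, adjusted p = 0.68). *JAG1* differed by 0.65 (interval 0.10 to 1.21) with an adjusted p of 0.0774, and with the replicate number as a block by 0.64 with an adjusted p of 0.0426. *JAG2* differed by -0.09 (interval -0.58 to 0.40) and *HEYL* by -0.01 (interval -0.46 to 0.44). When CTCFL-KD replicate 1 was left out, 5 of the 9 genes and 39.7% of all genes passed, with *NOTCH1* at 0.82 (adjusted p = 0.0307), *JAG1* at 0.86 (adjusted p = 0.00541) and *HEY1* at 0.94, short of the size for a DEG.

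The values of CTCFL-KD replicate 1 depended on transcript length. Over 5 equal classes of genes ordered by their longest annotated transcript, the median difference in log2 CPM between this library and the mean of the other CTCFL-KD libraries was 0.847 in the shortest class (median 1300 bases) and -0.682 in the longest (median 8032 bases). The receptor transcripts are among the longest, and the differences were -1.44 for *NOTCH2* (11425 bases), -0.60 for *NOTCH1* (9855 bases) and -0.42 for *NOTCH3* (8680 bases). *HES1*, with 1575 bases, differed by 0.67, whereas *JAG2* (5773 bases) differed by 0.35 and *JAG1* (5940 bases) by -0.71, on opposite sides at a like length. In TPM, which carries no TMM factor and also divides by exon length, this library had 11.3 for *NOTCH1*, 25.6 for *NOTCH2*, 58.0 for *NOTCH3* and 83.3 for *JAG1*. Each lay below the Control libraries, and what places them there was not tested. With trends of length and GC content removed from each library, the log2 fold changes in CTCFL-KD were 0.74 for *NOTCH1* (adjusted p = 0.00989), 0.70 for *NOTCH3* (0.00421), 1.20 for *JAG1* (0.000407), 0.55 for *HES1* (0.00663), 1.53 for *HEY1* (4.6e-05) and 4.35 for *DLL1* (8.67e-05), so that all 6 kept their calls and *NOTCH1* and *NOTCH3* fell short of the size for a DEG. The same removal also moved values in CTCFL-OE. There *NOTCH1* was at 0.18, *NOTCH2* at 0.48, *NOTCH3* at 0.68, *JAG1* at 0.60 and *JAG2* at 0.33. *DLL1* was at 0.61, *HES1* at -0.06, *HEY1* at 0.47 and *HEYL* at -0.09.

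**Figure D4:**
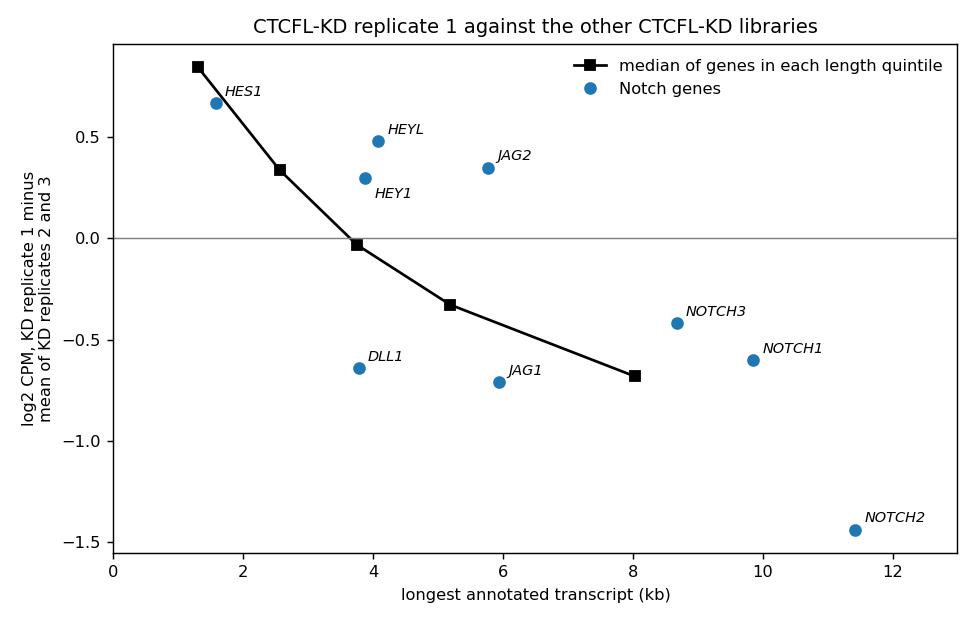
Difference in log2 CPM between CTCFL-KD replicate 1 and the mean of the other CTCFL-KD libraries against the longest annotated transcript in kb, for the 9 tested Notch genes (circles) and as medians over 5 classes of genes by length (squares). The medians fall from 0.847 to -0.682, and *NOTCH2* lies lowest at -1.44.

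Other genes of the pathway were taken from 67 listed by role, of which 63 had enough counts to test. In CTCFL-OE none of these rose and 4 fell, where 1.99% of all genes rose and 1.16% fell, and their median log2 fold change was 0.02. The genes that fell were *TLE4* (-1.29, SE 0.27, adjusted p = 0.0489), a Groucho-type corepressor that works with HES proteins, *SOX9* (-1.06, SE 0.21, adjusted p = 0.0447), a transcription factor of progenitor cells, the cell cycle inhibitor *CDKN1A* (-0.90, SE 0.23, adjusted p = 0.0925) and the cyclin *CCND1* (-0.75, SE 0.17, adjusted p = 0.0633). The last 3 are targets that Notch shares with other pathways. None of the 4 passed when any 1 Control library or CTCFL-OE replicate 2 was left out, 1 gene of the lists passed without CTCFL-OE replicate 3, 9 of 63 passed without CTCFL-OE replicate 1, and 17 passed without CTCFL-KD replicate 1, near the shares of all genes in those fits, 15.1% and 27.4%. The call of *CDKN1A* was also lost without CTCFL-KD replicate 2 or 3 (adjusted p = 0.13 and 0.124) and with library totals in place of TMM (0.111), as was that of *CCND1* with library totals (0.125).

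In CTCFL-KD 16 of the 63 rose and 8 fell, where 21.4% and 16.8% of all genes did, with a median log2 fold change of 0.12. Beside the 24 called, 39 did not pass the test. All 3 further ligands that could be tested rose. These were *DNER* (2.64, SE 0.38, adjusted p = 0.00042), *DLL3* (1.89, SE 0.30, adjusted p = 0.000833), a divergent Delta-like protein that does not activate receptors on other cells, and *DLK2* (1.63, SE 0.51, adjusted p = 0.0281). *DNER* had 5, 10 and 4 counts in Control and 14, 37 and 35 in CTCFL-KD, so it remained a rare transcript. *DLL3* was at 7.81, 5.91 and 7.65 CPM in Control and 41.8, 18.8 and 19.0 CPM in CTCFL-KD, highest in replicate 1, without which its log2 fold change was 1.42 (adjusted p = 4.23e-05). The call of *DLK2* was lost without CTCFL-KD replicate 1 (1.09, adjusted p = 0.0703) and without Control replicate 2 or 3 (adjusted p = 0.101 and 0.0902).

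Receptor cleavage needs the protease complex gamma-secretase, which makes the cut within the membrane. Over all genes 21.4% rose in CTCFL-KD and 16.8% fell. Of 9 genes of receptor processing 5 rose, none fell and 4 did not pass the test. Among those that rose were the subunit genes *PSENEN* (2.10, SE 0.46, adjusted p = 0.00486), *NCSTN* (1.52, SE 0.23, adjusted p = 0.000611), *APH1B* (1.52, SE 0.21, adjusted p = 0.000369) and *APH1A* (1.18, SE 0.20, adjusted p = 0.000997). *PSENEN* was at 26.5, 25 and 25.3 CPM in Control and 209, 57.9 and 64.6 CPM in CTCFL-KD, and its log2 fold change was 1.26 (adjusted p = 0.0017) without replicate 1. *NCSTN*, *APH1B* and *APH1A* lie outside the rule for named genes and were named after their values were seen.

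Where 21.4% of all genes rose in CTCFL-KD and 16.8% fell, 3 of the 6 enzymes that put sugars on the receptor rose and none fell. Among the 3 was *RFNG* (1.80, SE 0.26, adjusted p = 0.000407), 1 of the Fringe enzymes that set which ligands a receptor answers to. *RFNG* was at 23.3, 20.9 and 21.4 CPM in Control and 104, 56.1 and 68.0 CPM in CTCFL-KD, with no overlap, and its log2 fold change was 1.51 (adjusted p = 0.000107) without CTCFL-KD replicate 1. Of 13 genes of endocytosis and ubiquitination 1 rose and 2 fell, to be read against the same shares of all genes. *ITCH*, a ubiquitin ligase that acts on the receptor, was at -0.97 (SE 0.24, adjusted p = 0.00888).

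Genes that act in the nucleus and further targets rose or fell in numbers to be read against the 21.4% and 16.8% of all genes that did so. Of 9 genes of the activating complex none rose and 2 fell: *MAML2* (-1.28, SE 0.34, adjusted p = 0.0134), a coactivator of the intracellular domain, and *RBPJ* (-0.64, SE 0.19, adjusted p = 0.0189), its DNA-binding partner, which was named after its values were seen. *MAML2* was at 23.4, 27.5 and 25.7 CPM in Control and 4.33, 12 and 14.8 CPM in CTCFL-KD, lowest in replicate 1, and without that library its log2 fold change was -0.92 (adjusted p = 0.00127), short of the size for a DEG. The call of *RBPJ* was lost without Control replicate 1 or 3 or CTCFL-KD replicate 2 (adjusted p = 0.0616, 0.0752 and 0.065) and with length and GC trends removed (-0.26, adjusted p = 0.227). Of 14 genes of repression 2 rose and 2 fell, with the histone deacetylase *HDAC1* at -0.88 (SE 0.18, adjusted p = 0.00292), or -1.01 (adjusted p = 0.000117) without CTCFL-KD replicate 1. *TLE4* went in opposite directions in the treated groups, with 2.70, 2.76 and 3.49 CPM in Control, 1.64, 0.993 and 0.983 CPM in CTCFL-OE and 4.6, 5.41 and 5.81 CPM in CTCFL-KD. The rise in CTCFL-KD was 0.83 on the log2 scale (SE 0.24, adjusted p = 0.0204), and CTCFL-KD exceeded CTCFL-OE by 2.11 (adjusted p = 0.000247). The rise against Control was not past the threshold without Control replicate 1 or 2 (adjusted p = 0.0908 and 0.0905), without CTCFL-KD replicate 3 (0.065) or with library totals in place of TMM (0.0861). Of the 9 further targets tested 2 rose and 2 fell. *CCND1* had the largest fall, from 487, 461 and 503 CPM in Control to 91.0, 111 and 96.8 CPM in CTCFL-KD, with 305, 276 and 281 CPM in CTCFL-OE (log2 fold change in CTCFL-KD -2.28, SE 0.18, adjusted p = 9.27e-06). *SOX9* was at 26.8, 24.3 and 27.4 CPM in Control, 12, 10.7 and 15 CPM in CTCFL-OE and 9.47, 13 and 15.7 CPM in CTCFL-KD (log2 fold change in CTCFL-KD -1.03, SE 0.21, adjusted p = 0.00341). Without CTCFL-KD replicate 1 this was -0.86 (adjusted p = 0.0015), short of the size for a DEG.

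**Figure D5:**
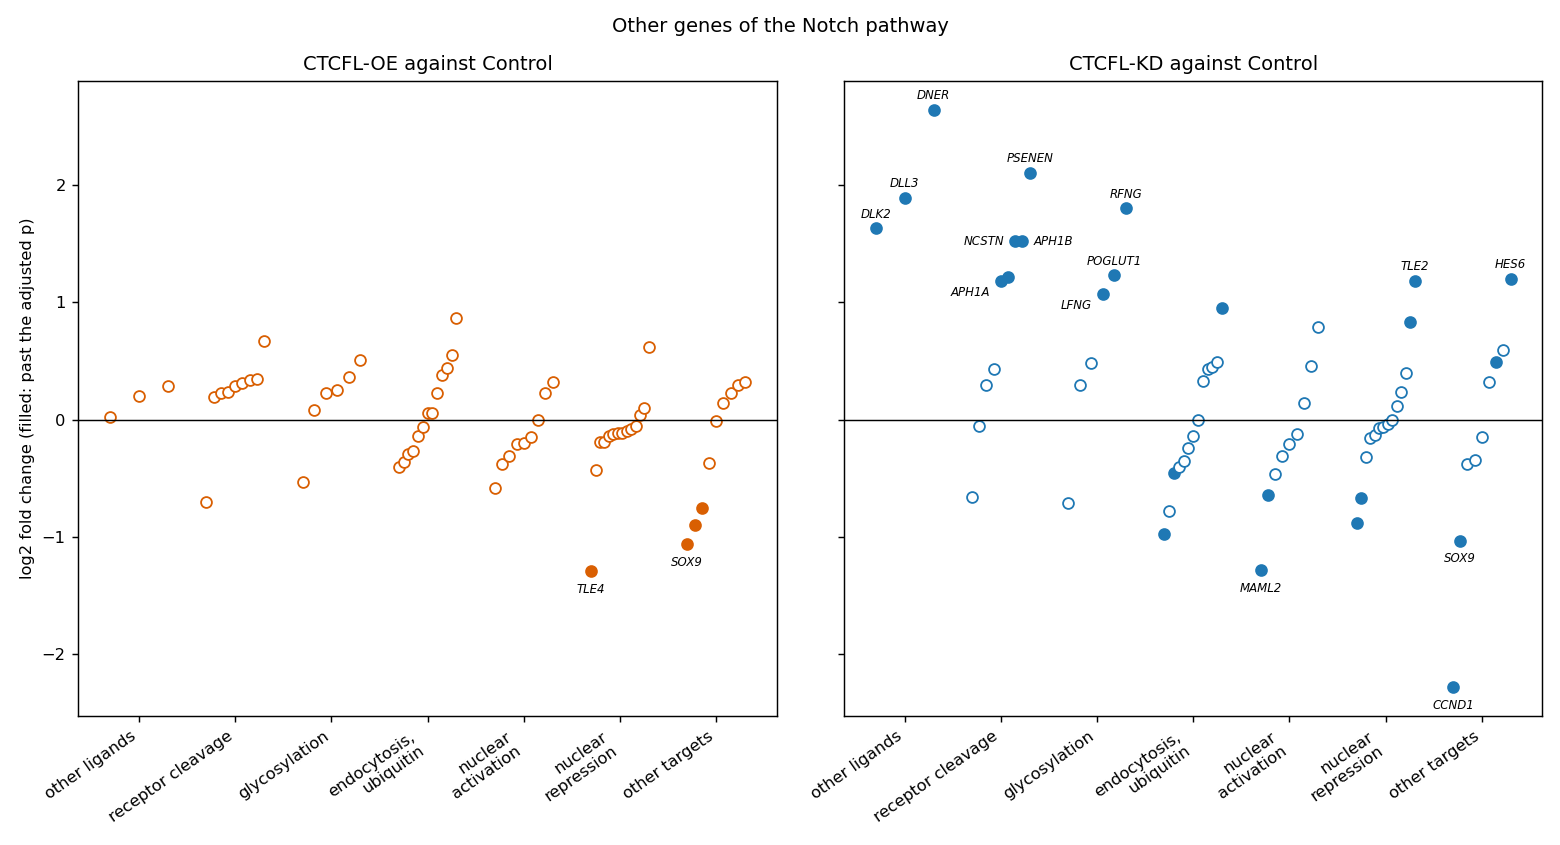
Log2 fold changes against Control of the 63 other Notch pathway genes tested, by role, in CTCFL-OE (left) and CTCFL-KD (right), filled where the adjusted p is past the threshold with names for most of the filled points beyond 1 in size. In CTCFL-OE 4 points are filled, all below 0, and in CTCFL-KD 24 are filled, with *DNER* highest at 2.64 and *CCND1* lowest at -2.28.

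The genes whose pattern over the 9 libraries was most like that of the member of each role with the highest mean TPM over all 9 libraries were found among 15371 genes by the root mean square difference of centred log2 CPM. In Control alone *NOTCH2* stood above *NOTCH3*. For *NOTCH3* these were *CCDC57* (0.099), *MDM4* (0.106) and *SRCIN1* (0.111). For *JAG1* they were *CNNM4* (0.097), *OCLN* (0.1), which encodes the tight junction protein occludin, and *PCSK5* (0.101). For *HES1* they were *RAB20* (0.082), *DUT* (0.084) and *NDUFS4* (0.095). *OCLN* was at mean levels of 51.3, 88.1 and 123 CPM and *MDM4* at 23.6, 42.1 and 45.5 CPM in Control, CTCFL-OE and CTCFL-KD. None of the other members was among the 3 genes named for each.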

How the data were processed

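Per the study's methods, libraries were prepared with a stranded mRNA kit and sequenced in pairs. Reads were trimmed with Trimmomatic and aligned by STAR to GRCh38, and featureCounts assigned them to genes. Kallisto is also named in the submitters' processing notes, with no role. The authors deposited these read counts per gene without normalization, as a matrix of 60660 genes and as 9 library files that held the same values. How featureCounts handled strand and multi-mapping reads, and on which annotation release, is not given in the sources used here, so genes that overlap or have near-identical copies are uncertain. Ensembl identifiers were matched to symbols, positions and lengths of GENCODE release 44, which named 60419 of them.

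The tests were run in R 4.3.3 with edgeR 4.0.16. The filter filterByExpr left 17794 genes, TMM gave the scaling factors, and a robust quasi-likelihood model with 1 mean per group was fitted on the 9 libraries together. P-values were adjusted by Benjamini-Hochberg over all genes tested. TPM used exon unions. Alternatives were DESeq2 1.42.0 and edgeR on the 2 groups compared, DESeq2 on all libraries, RLE, upper-quartile and no scaling, no filter, a minimum of 10 counts in each library, a fit that was not robust, the replicate block, offsets for length and GC content, and each library left out in turn. Tables and figures used Python 3.11.15, pandas 2.3.3, numpy 2.4.6 and matplotlib 3.10.9. The fit was also run on simulated data, with an outcome that is not given here. Those data held no length or GC trend and no outlying library, so they do not bear on CTCFL-KD replicate 1.

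The limit of 3 counts for a count of 0 covers counting error only, as the reads carry no molecular identifiers. The 95% intervals come from the quasi-likelihood fit and also hold the spread between libraries. The 10 genes, the lists of other pathway genes and markers and the thresholds were chosen with earlier results of these data known. Named pathway genes were, in each comparison with Control, the 5 highest and 5 lowest log2 fold changes among genes past the adjusted p whose groups did not overlap and that had a mean of at least 1 CPM in a group. To these were added the copies of *NOTCH2* and, for the member of each role with the highest mean TPM over the 9 libraries, the 3 genes of most similar profile. The values of 1 pathway gene are not reported here. For CTCFL-KD and Control, same-numbered libraries deviated from their group means with correlations of 0.322, 0.184 and 0.219 over 13537 genes, above 0.1 in every pair. With length and GC trends removed these were 0.146, 0.125 and 0.13. For CTCFL-OE and Control the correlations were -0.0353, 0.219 and -0.0517. Differently numbered libraries were not compared, so these values cannot show whether libraries were paired, and the labels name no shared batch or day. The main test held no replicate block.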

Additional observations from a re-analysis of the deposited data

How the results depend on the processing

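In CTCFL-KD the number of Notch genes past the threshold was 6 and stayed between 5 and 7 in all 21 alternatives. Of all genes 21.2% (no low-count filter) to 49.9% (without CTCFL-KD replicate 1) passed in these, against 38.2%. *NOTCH1* (0.71 to 1.26), *NOTCH3* (0.70 to 1.15), *JAG1* (1.12 to 1.52), *DLL1* (4.04 to 5.61) and *HEY1* (1.29 to 1.57) kept their calls in each alternative that could test them. *DLL1* could not be tested with at least 10 counts in every library. The number of DEGs in CTCFL-KD, 5, was 3 with total counts, with length and GC offsets and with these and the replicate block, and 3 to 5 when a library was left out. In CTCFL-OE the number past the threshold, 1, was 5 with DESeq2 and 4 with edgeR on the 2 groups compared (23.6% and 20.2% of all genes passed there, against 3.15%), 0 with total counts (2.17%) and 2 with length and GC offsets (9.99%), also with the replicate block (9.58%), and ran from 0 to 5 when a library was left out (0.24% to 27.4%). DEGs in CTCFL-OE numbered 0 to 1 when a library was left out. Of the genes not called there, *JAG1* passed in 6 of the 21 alternatives, *JAG2* in 4, *HEY1* in 3, *NOTCH2* in 2 and *NOTCH1* in 1. The other pathway genes in CTCFL-OE, 4, were 7 with DESeq2 on all libraries, 15 with DESeq2 and 13 with edgeR on the 2 groups, 2 with total counts and 7 with the replicate block and offsets, and 0 to 17 when a library was left out. On all libraries DESeq2 called 8.55% of all genes. Between CTCFL-KD and CTCFL-OE, the 3 Notch genes past the threshold were 5 with the offsets with or without the block, 2 with edgeR on the 2 groups compared and 2 to 5 when a library was left out. The 2 DEGs of this comparison were 1 with total counts, with no low-count filter and with at least 10 counts in every library, and 1 to 3 when a library was left out (1 without CTCFL-OE replicate 3 or CTCFL-KD replicate 1). The 16 other pathway genes were 27 with the offsets, 26 with the offsets and the block, and 13 to 32 when a library was left out, the 32 without CTCFL-KD replicate 1. Of all genes 26.8% passed this comparison, and 35.4%, 35.6% and, without CTCFL-KD replicate 1, 39.7% did so in these fits. Beyond the values above, the replicate block alone changed no call of a Notch gene other than *JAG1* between CTCFL-KD and CTCFL-OE (0.64, adjusted p = 0.0426).

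Signs changed for values near 0. *HEYL* in CTCFL-OE was 0.01 with DESeq2 on all libraries and with RLE, 0.04 on the 2 groups with DESeq2 or edgeR, 0.05 with upper-quartile scaling, 0.02 with at least 10 counts in every library and -0.06 to 0.06 when a library was left out. In CTCFL-KD it was 0.01 with upper-quartile scaling and -0.17 to 0.13 when a library was left out. Between CTCFL-KD and CTCFL-OE, leaving out a library gave -0.47 to 0.12 for *NOTCH2*, -0.10 to 0.28 for *NOTCH3*, -0.30 to 0.03 for *JAG2* and -0.18 to 0.14 for *HEYL*. The causes of these changes were not tested. At these depths, differences of *NOTCH4* and of *DLL1* between Control and CTCFL-OE rest on at most 11 counts per library.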
